A study of Mus musculus with 36 samples.

Results

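Binding of the TATA-binding protein TBP was examined at 5 mouse genes transcribed by RNA polymerase III from promoters that lie upstream of the gene: Rmrp, Rpph1, Rn7sk, Rny1 and Rny3. They were taken by name at their RefSeq positions in GRCm38.p6 (the mm10 assembly), out of 49980 genes with coordinates. The rule names genes and uses no measured value, but the list was drawn up with earlier results of these data known. A summit is the single base where a called TBP peak is highest. A gene was called bound in a list if at least 1 summit fell no more than 500 bp from one of its ends.

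The data are CUT&RUN profiles, in which a nuclease tethered to an antibody releases DNA around the bound protein, from 2 embryonic stem (ES) cell lines. RT7 cells have the genotype R26CreERT2/+;Taf7flox/flox and RT10 cells R26CreERT2/+;Taf10flox/flox. Both therefore carry a tamoxifen-responsive Cre at the Rosa26 locus, and in both the floxed gene encodes a subunit of TFIID, the complex that brings TBP to RNA polymerase II promoters. From day 1 to day 3 after plating, cells of each line were kept in 4-hydroxytamoxifen (4-OHT), the inducer of Cre-mediated deletion, or in ethanol (EtOH). All were grown with serum, leukemia inhibitory factor and the inhibitors CHIR99021 and PD0325901. Of the 36 libraries, 2 per line and treatment are TBP libraries, and each such pair is represented by 1 list, called over the IgG library of the same name. The lists held 1379 summits in RT7 4-OHT, 2666 in RT7 EtOH, 2188 in RT10 4-OHT and 3102 in RT10 EtOH. The score of a summit is the authors' own, taken here to be a −log10 q-value. It was read as a rank within its list, where rank 1 is the highest score, and scores of different lists are not on a common scale. The read depth behind the lists is unknown and no list has a replicate, so no difference between treatments was tested and whether Taf7 or Taf10 was lost was not checked here.

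RNA polymerase III genes differ in where their promoter lies. Genes for tRNAs and 5S rRNA carry it inside the transcribed region. The upstream kind, known from U6, 7SK, RNase P RNA, RNase MRP RNA and Y RNA genes, has a TATA box near the start, a proximal sequence element bound by the SNAPc complex, and a more distant element that often holds an octamer read by POU2F1 (Oct-1) or a site for ZNF143 (Zfp143 in mice). TBP serves both kinds as part of TFIIIB, without TFIID.

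None of the 5 genes has a promoter window of its own in the RefSeq promoter table used here. For Rmrp, Rpph1 and Rn7sk the window of the neighbouring gene covers all or most of the space between both genes, and these stretches are shown because they lie beside the TBP summits or, at Rn7sk, where one could have been called. The gene table gives no strand. That Rpph1 and Parp2 are transcribed away from each other is background knowledge, and for Rmrp and Rn7sk the side facing the neighbour was not shown here to be the upstream one. Each runs 5′ to 3′ on the plus strand (RefSeq, GRCm38.p6) up to the last base before the neighbour's start. The Ccdc107 stretch is chr4:43493115-43493339, the Parp2 stretch chr14:50807666-50807896 and the C920006O11Rik stretch chr9:78175664-78175913. Capitals mark the octamer ATGCAAAT on either strand (at Rn7sk its first 7 bases, ATGCAAA) and the proximal element core ACCNTAA, which reads TTANGGT on the plus strand.
Rmrp to Ccdc107: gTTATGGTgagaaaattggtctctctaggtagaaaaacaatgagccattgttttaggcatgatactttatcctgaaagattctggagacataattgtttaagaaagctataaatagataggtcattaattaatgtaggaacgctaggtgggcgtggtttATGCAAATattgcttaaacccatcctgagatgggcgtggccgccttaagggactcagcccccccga
Rpph1 to Parp2: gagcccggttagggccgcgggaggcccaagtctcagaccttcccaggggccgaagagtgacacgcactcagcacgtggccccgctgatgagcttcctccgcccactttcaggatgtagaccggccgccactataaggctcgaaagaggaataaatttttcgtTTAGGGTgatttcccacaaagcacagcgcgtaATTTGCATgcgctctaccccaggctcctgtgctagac
Rn7sk to C920006O11Rik: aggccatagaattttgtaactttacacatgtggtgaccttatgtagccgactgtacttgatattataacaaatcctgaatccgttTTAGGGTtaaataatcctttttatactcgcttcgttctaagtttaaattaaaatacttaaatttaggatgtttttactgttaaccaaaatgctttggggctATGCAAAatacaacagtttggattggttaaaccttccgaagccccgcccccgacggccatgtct

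In the Rpph1 stretch the matches lay in the order TATA, proximal element core and octamer. Counted outward from the Rpph1 end that faces Parp2, 24 bases preceded a TATAA, 56 bases preceded the proximal element core, and 88 bases preceded the octamer. They did not share a strand: TATAA matched on the plus strand, the core and the octamer on the minus strand. In the Rmrp stretch the core again followed 56 bases after the gene end, TATAA lay 162 bases out and the octamer 214 bases out. There the core was on the minus strand, and TATAA and the octamer on the plus strand. The Rmrp stretch begins 56 bases past the gene end and the Rn7sk stretch 31 bases past it, so the bases next to these genes were not searched, while the Parp2 window reaches into Rpph1. At Rn7sk the core lay 115 bases out, TATAA matches began 92, 93 and 135 bases out, and the first 7 bases of the octamer lay 216 bases out. Of these, the TATAA at 93 bases and the octamer bases were on the plus strand, the others on the minus strand. Of all 32851 promoter windows of 300 bases, searched on both strands, 1.74% held ATGCAAAT, 6.98% held ACCNTAA, 24.9% held TATAA and 4.63% held ATGCAAA. The octamer and the core stood together in 48 windows (0.146%), 2 of which are the Ccdc107 and Parp2 windows; this combination and the search with 7 bases were chosen after the matches were seen. Of the other motifs searched, TATAT and the Zfp143 core ACTACAA had no match in the 3 windows, and the GC box GGGCGG matched in the Parp2 window, inside Rpph1, and in the C920006O11Rik window. The shorter core ACCNTNA matched only where ACCNTAA did. A match describes the letters and is not a known site.

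**Figure D1:**
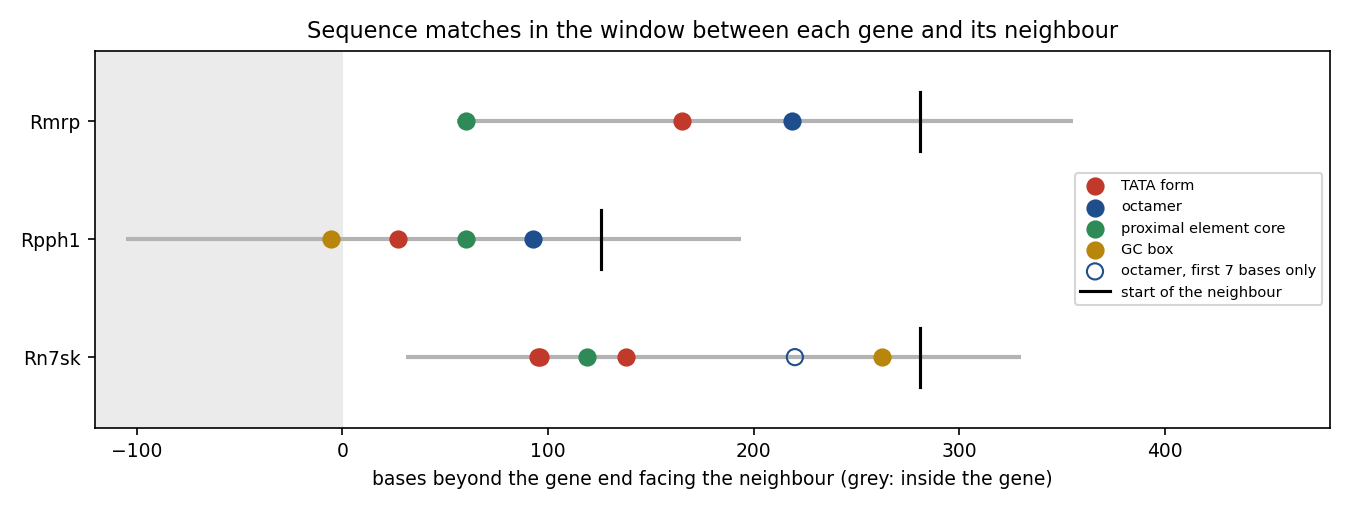
Places of motif matches in the windows of Ccdc107, Parp2 and C920006O11Rik, in bases beyond the end of Rmrp, Rpph1 and Rn7sk that faces each of them (x axis). Grey lines span the windows, black ticks mark the neighbours' starts, and the proximal element core sits 56 bases past both Rmrp and Rpph1.

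Rmrp encodes the RNA of RNase MRP, which acts in ribosomal RNA processing. It lies on chromosome 4 from 43492785 to 43493059 (275 bp), 280 bp from Ccdc107, a protein-coding gene starting at 43493340. TBP summits fell at 2 places, inside Rmrp and at the start of Ccdc107. The RT7 4-OHT list had 1 summit, at 43493349 (score 5.76, rank 623 of 1379), which is 290 bp outside Rmrp and 9 bp from the Ccdc107 start. The RT7 EtOH list had summits at 43493344 (8.42, rank 897 of 2666), 4 bp from the Ccdc107 start, and at 43493012 (7.45, rank 1011), inside Rmrp and 47 bp from its end. In RT7 cells the place at Ccdc107 was therefore called in both treatments, and the one inside Rmrp in EtOH alone. The RT10 4-OHT list had its summit inside Rmrp, at 43492929 (15.7, rank 333 of 2188). The RT10 EtOH list had one at 43492928 (8.13, rank 1149 of 3102), 1 bp away from it, and one at 43493375 (4.54, rank 2022), 35 bp from the Ccdc107 start. In RT10 cells it was the summit inside Rmrp that both treatments shared, and the Ccdc107 place that was called in EtOH alone. A count of Rmrp as bound in all 4 lists thus joins summits up to 447 bp apart, and every one of the 6 lay within 500 bp of the Ccdc107 start as well.

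Rpph1 encodes the RNA of RNase P, which trims the leader of tRNA precursors, and is known to share its promoter region with Parp2, which encodes a poly(ADP-ribose) polymerase of DNA repair. It lies on chromosome 14 from 50807447 to 50807771 (325 bp), with Parp2 starting 125 bp further on, at 50807897. No summit was called there in RT7 4-OHT, where the nearest lay 117038 bp away, 84 bp inside an end of Osgep and 140 bp from Apex1. The RT7 EtOH summit was at 50807693 (score 5.57, rank 1324 of 2666). In RT10 the 4-OHT summit was at 50807734 (6.85, rank 931 of 2188) and the EtOH summit at 50807703 (6.40, rank 1469 of 3102). The summits of the 3 lists spanned 41 bp, all inside Rpph1, 37 to 78 bp from the end facing Parp2 and 163 to 204 bp from the Parp2 start. They lay on the gene side of the TATAA match, which is 24 bases outside the gene. The RT7 EtOH score was shared by 150 summits (ranks 1324 to 1473), of which 35 (23.3%) had a 4-OHT summit within 250 bp, so most summits of that score had no partner in RT7 4-OHT. The 1379th rank, the length of the RT7 4-OHT list, falls among these tied summits. The 3 further RNase P RNA genes in the gene table, Rprl1, Rprl2 and Rprl3, were unbound in all 4 lists, with the nearest summit at least 59550 bp away.

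Rn7sk encodes 7SK RNA, which with HEXIM proteins holds the elongation kinase P-TEFb inactive. It lies on chromosome 9 from 78175302 to 78175633 (332 bp), 280 bp from the long non-coding RNA gene C920006O11Rik. No list had a summit within 500 bp of Rn7sk. The nearest was the same place in all of them, 15265 to 15343 bp away and 990 to 1068 bp from the lower end of Gsta4, a glutathione S-transferase gene. It had scores of 7.70 in RT7 4-OHT, 11.5 in RT7 EtOH, 12.8 in RT10 4-OHT and 17.5 in RT10 EtOH. A gene without a called summit is not shown to lack TBP.

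**Figure D2:**
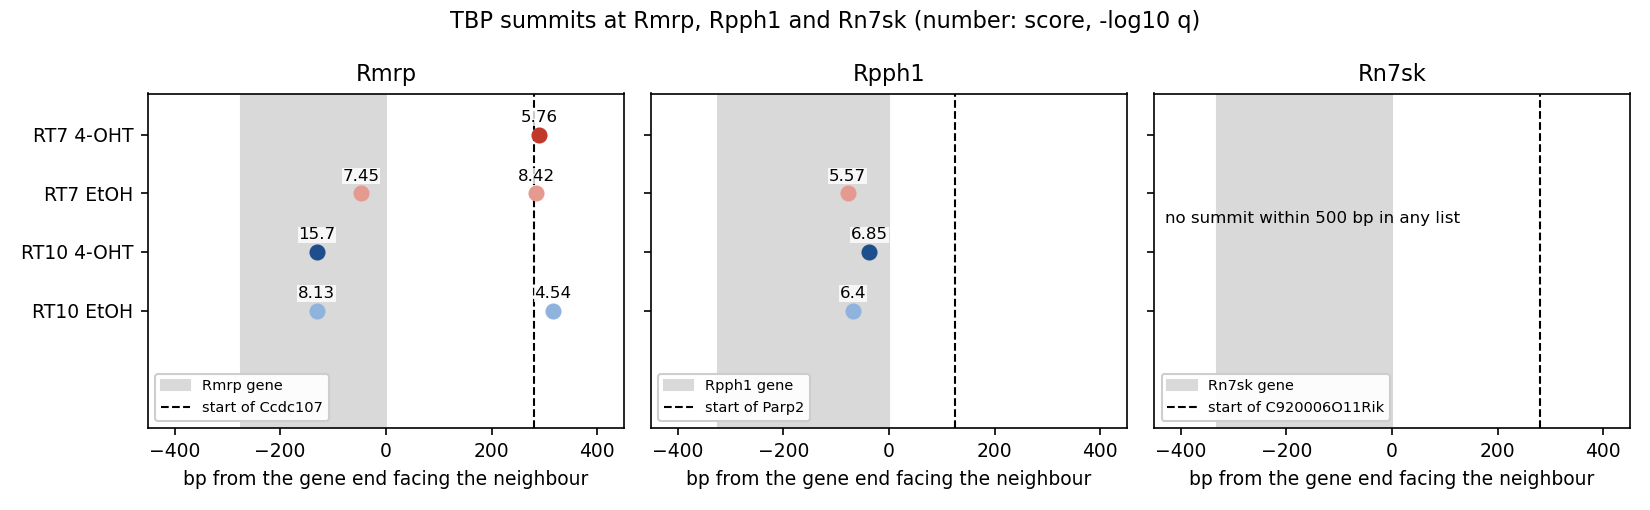
TBP summits of the 4 lists (rows) at Rmrp, Rpph1 and Rn7sk, by distance in bp from the gene end that faces the neighbour (x axis, negative inside the gene). Numbers are −log10 q scores; Rmrp summits fall inside the gene and at the Ccdc107 start, Rpph1 summits inside the gene, and Rn7sk has none.

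Rny1 and Rny3 encode Y RNAs, small RNAs bound by the proteins Ro60 and La. They lie 6345 bp apart on chromosome 6, Rny3 from 47781624 to 47781724 (101 bp) and Rny1 from 47788070 to 47788180 (111 bp), and no other gene lies within 500 bp of their summits. At Rny1 each list had 1 summit. It was at 47788107 in RT7 4-OHT (score 21.3, rank 104 of 1379) and at 47788092 in RT7 EtOH (28.8, rank 159 of 2666). In RT10 it was at 47788362 in 4-OHT (16.9, rank 306 of 2188) and at 47788380 in EtOH (15.6, rank 515 of 3102). At this gene, with 1 list per line and treatment, position went with the line and not with the treatment. The RT7 summits lay inside Rny1, 37 and 22 bp from its lower end, and the RT10 summits 182 and 200 bp past its upper end. Treatments of a line differed by 15 bp in RT7 and 18 bp in RT10, whereas the lines differed by 255 bp in 4-OHT and 288 bp in EtOH. Over all EtOH summits with a 4-OHT summit within 250 bp, the median distance between them was 58 bp in RT7 and 60 bp in RT10. Such pairs belong to 1 line and were limited to 250 bp, so they do not gauge the distances between lines.

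High-ranking summits lay in or near Rny3 in all 4 lists, but not at one place, and in RT7 EtOH none was within 500 bp. Here before and past mean lower and higher positions on the chromosome. As the gene table gives no strand, neither side was shown to be upstream. In RT7 4-OHT a summit lay 56 bp past the gene, at 47781780 (14.1, rank 208 of 1379), and a higher one 609 bp before it, at 47781015 (22.6, rank 91). In RT7 EtOH the nearest summit, at 47781092 (32.1, rank 128 of 2666), lay 532 bp before the gene, just outside the 500 bp limit, so Rny3 did not count as bound there. In RT10 4-OHT the summit at 47781135 (33.1, rank 101 of 2188) was 489 bp before the gene, just inside the limit, and in RT10 EtOH the summit was inside Rny3 at 47781711 (30.0, rank 193 of 3102), 13 bp from its end. The place 489 to 609 bp before Rny3 was thus called in RT7 4-OHT, RT7 EtOH and RT10 4-OHT, and the place at the gene in RT7 4-OHT and RT10 EtOH. The RT7 EtOH summit before the gene had a 4-OHT summit 77 bp away, while in RT10 the nearest 4-OHT summit was 576 bp from the EtOH one. From 3000 bp before Rny3 to 3000 bp past Rny1, each RT7 list held 4 summits and each RT10 list 3. The others of this stretch scored lower, from 3.01 to 6.49, and lay 2274, 2056 and 1979 bp before Rny3, 933 bp past it, and 908 bp before Rny1.

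**Figure D3:**
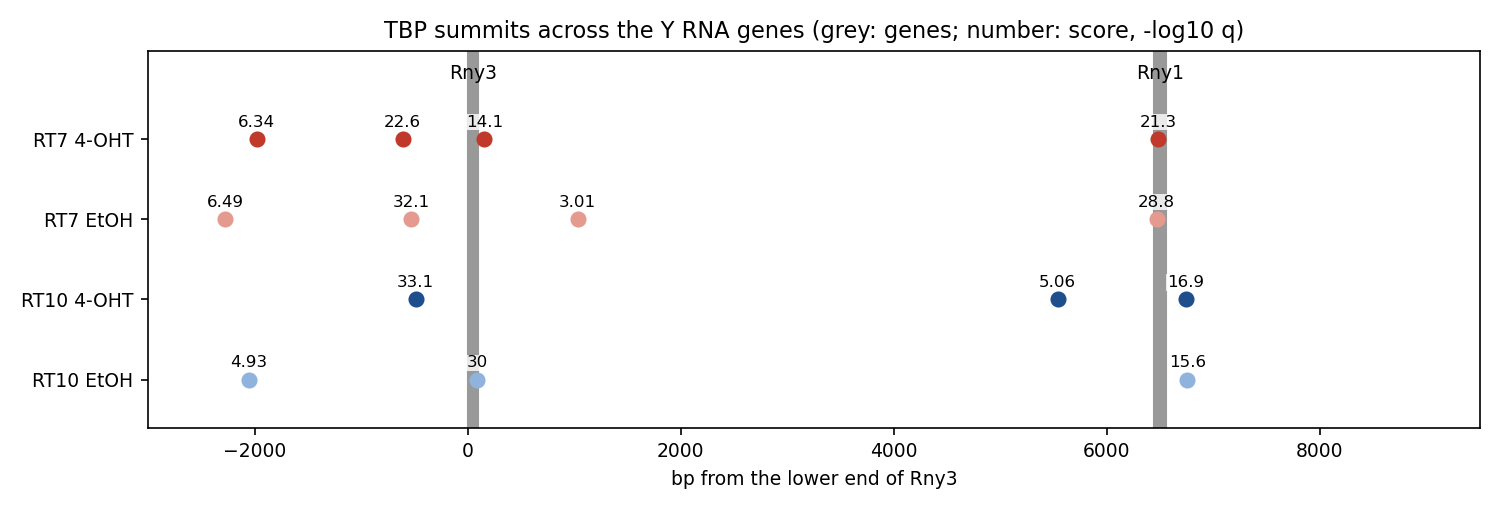
TBP summits of the 4 lists (rows) around Rny3 and Rny1 (grey bars), by distance in bp from the lower end of Rny3 (x axis), with −log10 q scores as numbers. At Rny1 the RT7 summits lie inside the gene and the RT10 summits 182 and 200 bp past its upper end. At Rny3 the place of the highest summit differs between RT10 4-OHT and RT10 EtOH.

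Counted by gene, 3 of the 5 genes were bound in RT7 4-OHT (Rmrp, Rny1 and Rny3) and 3 in RT7 EtOH (Rmrp, Rpph1 and Rny1). In RT10 the same 4 genes, all but Rn7sk, were bound in 4-OHT and in EtOH. Of all 49980 genes, 1.94% were bound in RT7 4-OHT, 3.30% in RT7 EtOH, 2.55% in RT10 4-OHT and 3.69% in RT10 EtOH. A gene was called kept when a 4-OHT summit lay within 250 bp of its EtOH summit. That held for 2 of the 3 genes bound in RT7 EtOH (Rmrp through its Ccdc107 summit, and Rny1) and for 3 of the 4 bound in RT10 EtOH (Rmrp, Rpph1 and Rny1). Over all genes bound in EtOH the share was 48.5% in RT7 (exact 95% interval 46.0 to 50.9) and 53.6% in RT10 (51.3 to 55.9), intervals that cover counting error only. With 3 and 4 genes, the counts cannot be set apart from these shares.

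How often a summit was kept moved with its rank, so each summit was set beside the 200 EtOH summits nearest to it in rank. Around the Rny1 summit 92.0% were kept in RT7 and 80.5% in RT10, and Rny1 was kept in both. Around the Rny3 summit of RT10 92.5% were kept, and this one was not, at 250 bp. Around Rpph1 25% were kept in RT7, where it was not, and 41.0% in RT10, where it was. For Rmrp, the summit at the Ccdc107 start was kept in RT7 (48.5% around it) and not in RT10 (31.0%), and the summit inside the gene was kept in RT10 (55.5%) and not in RT7 (35.5%).

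Within each list the bound Y RNA genes ranked above Rmrp and Rpph1, with Rny1 and Rmrp close together in RT10 4-OHT. As rank in percent of the list, where a low value is a high score, Rny1 lay at 7.54% in RT7 4-OHT, 5.96% in RT7 EtOH, 14.0% in RT10 4-OHT and 16.6% in RT10 EtOH. Rny3 lay at 15.1% in RT7 4-OHT, 4.62% in RT10 4-OHT and 6.22% in RT10 EtOH. Rmrp lay at 45.2%, 33.6%, 15.2% and 37.0% in the same order of lists, and Rpph1 at 49.7% in RT7 EtOH, 42.6% in RT10 4-OHT and 47.4% in RT10 EtOH. The RT7 values of Rmrp are those of the summits at the Ccdc107 start, 9 bp from it in 4-OHT and 4 bp in EtOH. Inside Rmrp, RT7 4-OHT had no summit, and the RT7 EtOH summit lay at 37.9%. Bound tRNA genes, whose promoters are internal, had median ranks of 15.1%, 12.2%, 7.86% and 9.45% in the 4 lists. Rpph1 thus ranked below the tRNA median in each list that held it, Rmrp in all 4, and Rny1 in both RT10 lists. Neighbouring tRNA genes can share a summit, which then counts more than once in that median. Bound small U RNA genes of RNA polymerase II, described below, had medians of 32.0%, 23.4%, 16.0% and 17.0%. Against these, Rny1 and Rny3 ranked above in each list that held them and Rpph1 below. Rmrp ranked below except in RT10 4-OHT. Neither the order of the genes nor their place against tRNA or U RNA genes has a replicate check.

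**Figure D4:**
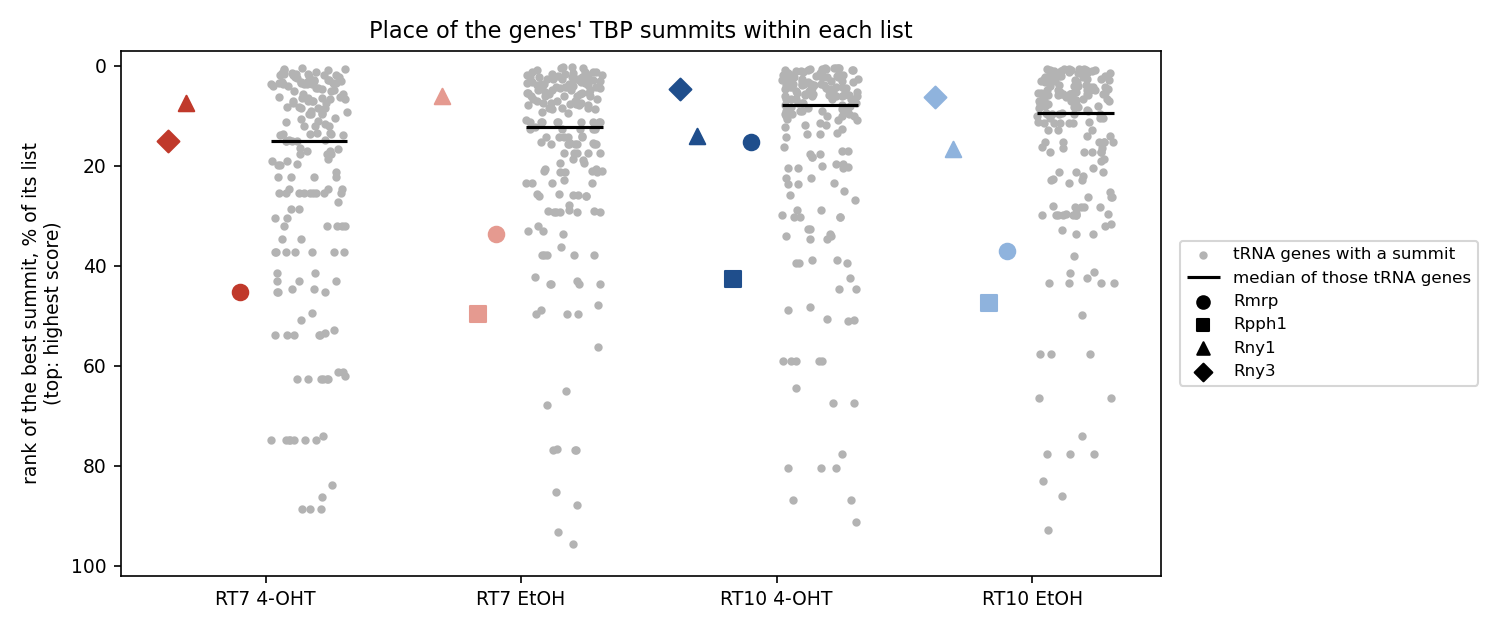
Rank of the best TBP summit of each bound gene in percent of its list (y axis, highest scores at the top) for Rmrp, Rpph1, Rny1 and Rny3 (coloured symbols) beside all bound tRNA genes (grey, with their median as a line). Rny1 and Rny3 lie at 16.6% or higher up in every list that holds them, and Rpph1 lies at 42.6 to 49.7%. The RT7 values of Rmrp come from summits at the Ccdc107 start.

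Rank percentages were also compared with those of other RNA polymerase III genes bound in the same lists. Nearly all of these candidates are tRNA genes (132 of 133 for Rny1 and for Rmrp, 141 of 143 for Rny3 and 143 of 146 for Rpph1), so the most similar genes could hardly be of another kind. For Rny1 they were n-TGccc4, n-TQctg9 and n-TKctt18, which differed by 2.27 to 3.96 percentage points on average over 4 lists. For Rny3 they were n-TMcat13, n-TTtgt3 and n-TAtgc5, which ties with its neighbour n-TDgtc14 (0.758 to 1.22 points over 3 lists), for Rmrp n-TNgtt9, n-TRcct3 and n-TEctc10 (5.0 to 8.02 points over 4 lists) and for Rpph1 n-TSgct4, n-THgtg6 and n-TEttc5 (4.95 to 9.44 points over 3 lists). The measure leaves out the list in which a gene was unbound: the genes named for Rny3 were bound in RT7 EtOH, and n-TSgct4 and n-TEttc5 in RT7 4-OHT. For Rmrp, the RT7 values compared are those of the summits at the Ccdc107 start. The measure says nothing of function.

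Summits were also set against the extent of the gene. In the order RT7 4-OHT, RT7 EtOH, RT10 4-OHT and RT10 EtOH, the best summit was inside the gene at 1 of 3, 2 of 3, 2 of 4 and 3 of 4 of the bound upstream-promoter genes. For tRNA genes it was inside at 1 of 182, 0 of 187, 2 of 187 and 3 of 184, with a median distance of 183 to 206 bp to the nearer end. The bound upstream-promoter genes had median distances of 56, 78, 156 and 99.5 bp in the same order of lists. U RNA genes of RNA polymerase II had similar medians, of 81, 100, 140 and 119 bp. Their best summit was inside at 0, 1, 1 and 1 of 11. The tRNA genes have a median length of 72 bp, against 101 to 332 bp for the 5 genes, and neighbouring tRNA genes can share a summit. This is a description and was not tested.

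Other RNA polymerase III genes differed by kind in how many were called bound. Of 403 tRNA genes, 182 were bound in RT7 4-OHT (45.2%), 187 in RT7 EtOH, 187 in RT10 4-OHT and 184 in RT10 EtOH, and 132 in all 4 lists. The 7SL RNA genes, whose RNA forms part of the signal recognition particle, differed between lists. Rn7s2 had no summit in RT7 4-OHT and scores of 7.45 in RT7 EtOH, 11.2 in RT10 4-OHT and 5.00 in RT10 EtOH, and Rn7s1 was bound in RT10 4-OHT alone (6.33). The U6 gene Rnu6, the vault RNA gene Vaultrc5, Bc1, the neuronal cytoplasmic RNA gene, and all 69 genes for 5S rRNA were unbound in every list. For U6 only the symbol Rnu6 was searched. These genes are not shown to lack TBP, and whether reads could be placed at genes present in many copies was not examined. Among small U RNA genes of RNA polymerase II, which share the proximal element and SNAPc with upstream RNA polymerase III promoters, the same 11 of 14 were bound in all 4 lists. Of these, Rnu2-10 had scores of 12.7 in RT7 4-OHT, 35.8 in RT7 EtOH, 41.1 in RT10 4-OHT and 21.1 in RT10 EtOH.

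**Figure D5:**
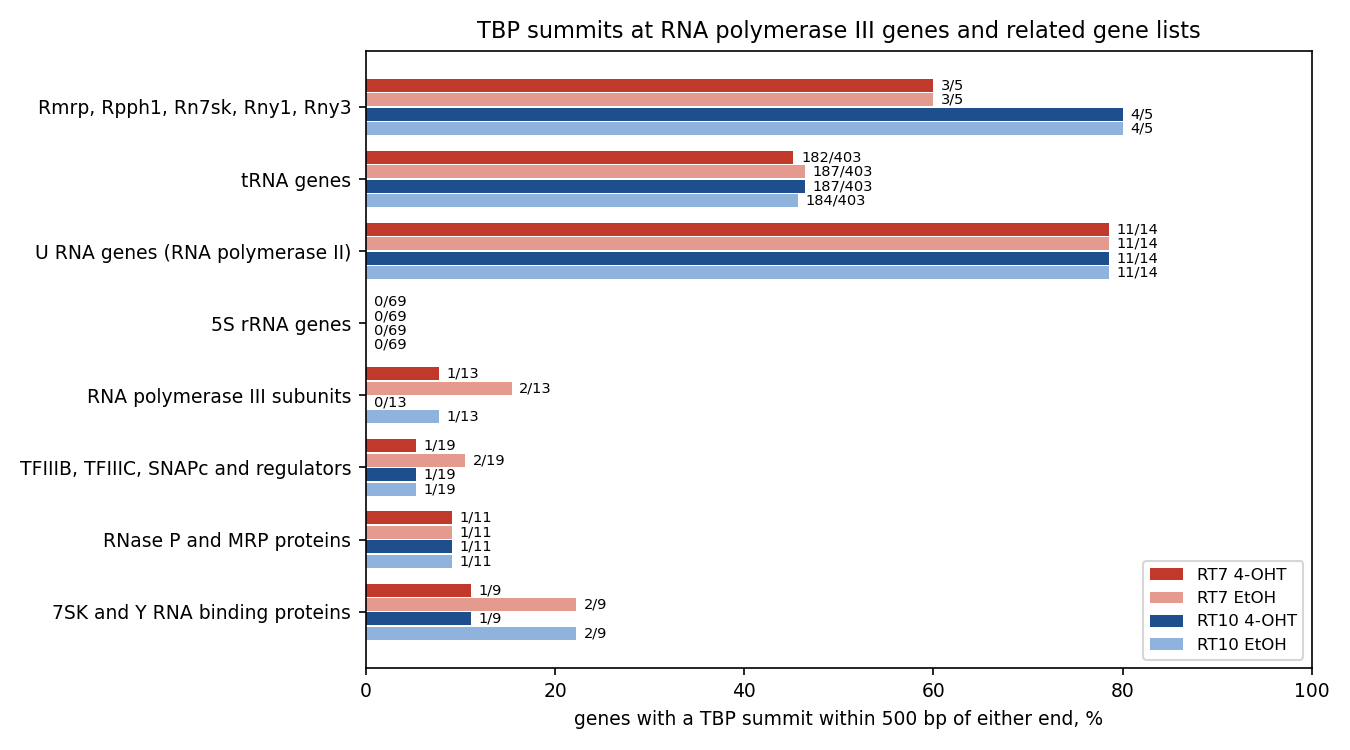
Share of genes bound by TBP (x axis, %; at least 1 summit no more than 500 bp from a gene end) in the 4 lists, for the 5 genes and for lists of related genes; labels give bound genes over genes in the list. The 5 genes have 3 or 4 of 5 bound, tRNA genes 45.2 to 46.4%, and genes for the protein machinery 0 to 2 bound each.

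Genes for the proteins of this pathway were bound in small numbers, out of 9 to 19 genes per group of proteins. Over all genes the shares were 1.94% in RT7 4-OHT, 3.30% in RT7 EtOH, 2.55% in RT10 4-OHT and 3.69% in RT10 EtOH. With so few genes the shares of these groups are coarse, and a difference from all genes was not tested. Of 13 RNA polymerase III subunit genes, 1 was bound in RT7 4-OHT (7.69%), 2 in RT7 EtOH (15.4%), 0 in RT10 4-OHT and 1 in RT10 EtOH (7.69%). They were Polr3d (3.10 in RT7 4-OHT and 5.57 in RT7 EtOH), Polr3gl (2.71 in RT7 EtOH) and Polr3e (3.23 in RT10 EtOH). The Polr3e summit lay nearer to the tRNA gene n-TLaag4 (129 bp, against 390 bp to Polr3e), and the Polr3d summits nearer to Mir320. Among 19 genes for TFIIIB, TFIIIC, SNAPc and regulators, 2 were bound in some list. Zfp143 had no summit in either 4-OHT list and scores of 12.6 in RT7 EtOH and 19.9 in RT10 EtOH, and Gtf3c6, a TFIIIC subunit gene, had 1.84 in RT7 4-OHT, 5.57 in RT7 EtOH and 5.06 in RT10 4-OHT, from summits that lay 326 to 384 bp from the U3 RNA gene Rnu3a as well. Of the 11 protein genes of RNase P and RNase MRP, Pop7 alone was bound, in all 4 lists, at scores of 2.29 to 5.40. Of 9 genes for proteins that bind 7SK or Y RNA, Mepce, the 7SK capping enzyme, was bound in neither 4-OHT list and in both EtOH lists (5.57 in RT7 and 7.73 in RT10). Over all genes bound in EtOH, only 48.5% in RT7 and 53.6% in RT10 were kept, and the 4-OHT lists are shorter. The absence of Zfp143 and Mepce from the 4-OHT lists is therefore not shown to be particular to these genes. Hexim1, which encodes the 7SK partner that inhibits P-TEFb, was bound in all 4, with scores of 27.7 in RT7 4-OHT, 34.6 in RT7 EtOH, 15.0 in RT10 4-OHT and 43.8 in RT10 EtOH. Its ranks of 61 of 1379, 117 of 2666, 363 of 2188 and 79 of 3102 correspond to 4.42%, 4.39%, 16.6% and 2.55% of these lists, whereas Rn7sk itself had no summit.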

How the data were processed

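TBP CUT&RUN summits were used from the 4 deposited lists, whose values are −log10 q-values at each summit of TBP over IgG, per the labels' tool list and the peak names. The submitters' processing notes name cutadapt 4.0, Bowtie2 2.4.4, SAMtools 1.15.1, bedtools, deepTools and MACS2 2.2.7.1, and the build mm10, without roles. Whether replicate libraries were pooled, and how the yeast spike-in was used, is not given in sources used here. Titles were followed for 2 IgG libraries (RT10 4-OHT, RT7 EtOH) whose treatment label disagrees.

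Gene positions came from a RefSeq table of GRCm38.p6, which holds no strand, so distances were taken to gene ends and not to starts. Ranks give tied scores their best rank. U RNA pseudogenes were left out, and no selenocysteine tRNA gene was matched. Named genes were the 5 genes, genes sharing their summits, up to 4 bound genes per list by RT7 EtOH score, and the 3 most similar in rank; the nearest genes of Rn7sk and Rpph1, and Rprl1 to Rprl3, were added later. The genes and lists were chosen with earlier results of these data known. Alternatives covered gene-end distance, score minimum, list length, kept distance, chromosomes, ties and the set ranked. Exact binomial intervals have a confidence level of 95%. The matching code was tested on simulated summits. Python 3.11.15, NumPy 2.4.6, pandas 2.3.3, SciPy 1.17.1 and matplotlib 3.10.9 were used.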

Additional observations from a re-analysis of the deposited data

How the results depend on the processing

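Of 28 recounts of bound genes, 26 stayed within 1.5 times the count reported, and of 18 recounts of kept genes 15 did. Some of these recounts could not differ. All the genes lie on autosomes, so the limit to autosomes and X could not change a count. Shortening the EtOH lists leaves the 4-OHT lists as they are, and RT7 4-OHT is itself the shortest list. The limit of 1.5 times also passes a change from 3 genes to 2 or from 4 to 3. The tally is therefore no measure of stability. With scores of at least 10, Rmrp was unbound in RT7 4-OHT and Rpph1 in RT10 4-OHT, bound genes were 1 in RT7 EtOH (Rny1) and 2 in RT10 EtOH (Rny1 and Rny3), and kept genes 1 in RT7 and 1 in RT10 (Rny1 in both). With gene ends within 250 bp, Rmrp was unbound in RT7 4-OHT and Rny3 in RT10 4-OHT, and 1 gene was kept in RT7, since the Rmrp summit at Ccdc107 lies 285 bp from Rmrp. At 1000 bp Rny3 counted as bound in RT7 EtOH and as kept in RT7, for 3 kept genes. With all lists at 1379 summits, Rpph1 was not bound in RT10 EtOH and so not kept. With the RT7 EtOH list at 1379 summits, Rpph1 stayed bound there, but its score is shared by ranks 1324 to 1473. Which of these tied summits stayed was set by the order of chromosome names and then position. This recount therefore cannot tell whether the RT7 EtOH call at Rpph1 holds at that length. Taking the first 7 bases of the octamer found it in 3 windows in place of 2.

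With tied scores at their worst rank, Rmrp moved to 49.3% in RT7 4-OHT and 36.2% in RT7 EtOH, and Rpph1 to 55.3% in RT7 EtOH. Here and below, the RT7 values of Rmrp are those of the summits at the Ccdc107 start. Ranked among summits at gene ends alone, all 14 ranks moved down. Rmrp was then at 52.9% in RT7 4-OHT, 42.2% in RT7 EtOH, 23.4% in RT10 4-OHT and 44.9% in RT10 EtOH. Rpph1 was at 57.2% in RT7 EtOH, 53.3% in RT10 4-OHT and 54.2% in RT10 EtOH. Rny1 was at 11%, 9.22%, 21.6% and 22.6% in the 4 lists, and Rny3 at 20.1% in RT7 4-OHT, 8.15% in RT10 4-OHT and 9.50% in RT10 EtOH. No paired analysis was possible because the lists carry no replicate number and no test was run, and for the same reason no replicate could be left out. As read depth is unknown, a summit missing from a shorter list cannot be told apart from lower depth.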

Other observations

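Promoter windows that held a TBP summit were compared with all 32851 windows for the motifs searched at the upstream-promoter genes. The octamer ATGCAAAT was in 3.98% of the 377 windows with a summit in RT7 4-OHT, 3.41% of 820 in RT7 EtOH, 3.43% of 554 in RT10 4-OHT and 3.62% of 940 in RT10 EtOH, against 1.74% of all windows. The proximal element core ACCNTAA, in 5.42 to 6.10% of windows with a summit, was not more frequent than in all windows (6.98%). TATAA was in 28.6% and 28.3% of windows with a summit in RT7 4-OHT and RT10 4-OHT and in 24.6% and 22.9% in RT7 EtOH and RT10 EtOH, against 24.9% of all. TATAT was in 12.2 to 17.0%, against 19.7% of all, the shorter core ACCNTNA in 21.5 to 24.4%, against 32.4%, and the Zfp143 core ACTACAA in 3.18 to 5.00%, against 3.24%. The GC box GGGCGG was in 65.0 to 71.0%, against 35.7% of all. Windows of neighbouring starts overlap and base composition was not matched, so these shares are descriptions without a test.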
